A study of Mus musculus with 16 samples.

Results

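Transcripts of 10 genes that mark the endothelium of the liver were followed through 16 mouse livers. They were taken from the counts by symbol: 7 genes of liver sinusoidal endothelial cells (Clec4g, Stab1, Stab2, Lyve1, Fcgr2b, Oit3 and Gpr182) and 3 genes shared by endothelial cells in general (Pecam1, Kdr and Cdh5). Each symbol matched 1 of the 55416 genes counted, and all 10 were among the 14770 genes with enough counts to test. The animals were wild-type C57BL/6J mice aged 8 weeks, injected through the tail vein with the same number of genome copies of a control adenovirus (Ad-CTRL) or of an adenovirus that overexpresses FAT10 (Ad-FAT10). FAT10, encoded by Ubd, is a ubiquitin-like protein modifier. After 4 days the mice received by oral gavage either the vehicle CMC or pemafibrate (Pema), an agonist of the nuclear receptor PPARα, at 1 mpk, 18 h and 5 h before liver removal. They were fasted for 5 h. This gave 4 groups of 4 livers each: Ad-CTRL CMC and Ad-FAT10 CMC on vehicle, and Ad-CTRL Pema and Ad-FAT10 Pema on the drug. Every liver had been exposed to an adenovirus, and mice without one were not analysed here. The promoter that drives FAT10 in the vector is not given in the sources used here, and the tissue was whole liver.

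Liver sinusoidal endothelial cells line the hepatic sinusoids, lack a continuous basement membrane and are perforated by open fenestrae. They clear waste macromolecules, modified lipoproteins, hyaluronan and immune complexes from blood by receptor-mediated endocytosis, and they supply hepatocytes with Wnt and bone morphogenetic protein signals. Stab1 and Stab2 encode the stabilins, large scavenger receptors. Lyve1 encodes a hyaluronan receptor, Fcgr2b the inhibitory receptor for the Fc part of IgG, and Clec4g a C-type lectin. Gpr182 encodes an atypical chemokine receptor and Oit3 a secreted zona pellucida domain protein. Kdr encodes the main signalling receptor for VEGF-A, Cdh5 the cadherin of endothelial junctions, and Pecam1 an adhesion molecule that endothelial cells share with platelets and leukocytes.

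Library totals ran from 18663498 to 28898229 counts. The lowest count of any member in any library was 91, for Lyve1, and the highest was 1447, for Stab1, so no member was near the limit of detection of 3 counts (0.104 to 0.161 CPM). Under CMC, Ubd was at 11.2 ± 3.05 CPM (SD, n = 4) with Ad-CTRL and 236.7 ± 115.7 CPM with Ad-FAT10. Under Pema, the Ubd levels were 27.5 ± 14.4 and 459.8 ± 64.3 CPM. CPM is the count scaled to library size after TMM scaling, which sets libraries to a common scale on the bulk of their genes. The Ubd difference between the adenoviruses was 4.41 ± 0.39 (log2, SE) under CMC and 4.06 ± 0.38 under Pema (edgeR, adjusted p = 4.8e-07 and 8.1e-07), and its levels in the adenovirus groups did not overlap. Within Ad-FAT10 CMC, Ubd ranged from 110.5 to 339.3 CPM. Ubd was also higher with Pema than with CMC, by 1.30 ± 0.36 (log2, SE) in Ad-CTRL livers and 0.96 ± 0.33 in Ad-FAT10 livers (edgeR, adjusted p = 0.00945 and 0.0413). The FAT10 transcript level thus differed between the treatments.

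Promoter windows are shown for 4 of the 7 members that fell with Ad-FAT10, Clec4g and Kdr, which had the largest estimates, and the stabilin genes Stab2 and Stab1. Each is the 250 bases before the transcription start in RefSeq (GRCm38.p6), written 5′ to 3′ on the gene's strand. Capitals mark GGAA or its complement TTCC, the core recognised by ETS factors, a family that includes regulators of endothelial genes. RefSeq promoter entries matched 5 of the 10 members: Clec4g, Stab1, Stab2, Fcgr2b and Kdr. The Clec4g window lay at chr8:3720652-3720901 on the minus strand. The Kdr window lay at chr5:75978456-75978705 on the minus strand. The Stab2 window lay at chr10:87007943-87008192 on the minus strand. The Stab1 window lay at chr14:31168642-31168891 on the minus strand.
Clec4g: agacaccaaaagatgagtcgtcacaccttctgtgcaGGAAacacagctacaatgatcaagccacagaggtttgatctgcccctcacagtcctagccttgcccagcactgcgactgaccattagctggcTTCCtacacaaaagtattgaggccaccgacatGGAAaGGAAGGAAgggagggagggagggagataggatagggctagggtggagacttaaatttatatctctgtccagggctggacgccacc
Kdr: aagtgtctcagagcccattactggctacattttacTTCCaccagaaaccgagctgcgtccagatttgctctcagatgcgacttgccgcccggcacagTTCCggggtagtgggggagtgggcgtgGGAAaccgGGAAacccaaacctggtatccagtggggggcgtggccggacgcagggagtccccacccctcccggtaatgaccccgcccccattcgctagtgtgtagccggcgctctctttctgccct
Stab2: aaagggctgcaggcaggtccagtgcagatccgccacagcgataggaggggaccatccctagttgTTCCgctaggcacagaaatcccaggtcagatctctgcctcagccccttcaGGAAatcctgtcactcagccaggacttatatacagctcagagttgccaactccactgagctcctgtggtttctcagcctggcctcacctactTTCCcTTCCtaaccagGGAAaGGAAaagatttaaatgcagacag
Stab1: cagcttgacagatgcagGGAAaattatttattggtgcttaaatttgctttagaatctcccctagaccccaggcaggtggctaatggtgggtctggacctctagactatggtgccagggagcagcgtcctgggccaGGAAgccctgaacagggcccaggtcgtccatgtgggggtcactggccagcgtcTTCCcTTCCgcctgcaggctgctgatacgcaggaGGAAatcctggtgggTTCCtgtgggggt
The Clec4g window held 5 ETS cores, the Kdr window 4, and the Stab2 and Stab1 windows 6 each. Fcgr2b had 4. Across 32841 RefSeq windows of the same length, 93.45% held at least 1 core and the median was 3. Neither AGATAA nor TGATAA, the letters searched for GATA factors on both strands, was in any of the 5 windows, against 16.6% of all windows. A direct repeat for PPAR, AGGTCANAGGTCA on both strands, was also in none of them, and was in 0.03349% of all windows. These letter matches describe the windows and are no measure of binding.

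In the livers of the Ad-CTRL CMC group the members stood in an order that can be compared only per length of exon. On that scale Clec4g was the most abundant, at 17.8 ± 2.56 CPM per kb (SD, n = 4), and its lowest library lay above the highest of every other member. Oit3, Fcgr2b and Gpr182 followed at 8.31 ± 2.16, 7.39 ± 1.23 and 7.15 ± 1.18 CPM per kb, with ranges that overlapped from one to the next. Below them stood Cdh5 at 5.17 ± 0.709, Stab2 at 4.79 ± 0.628, Kdr at 4.59 ± 1.07 and Stab1 at 4.32 ± 0.587 CPM per kb, again with overlapping neighbours. Pecam1 at 2.98 ± 0.323 and Lyve1 at 2.46 ± 0.461 CPM per kb were the lowest and overlapped each other. In Ad-CTRL Pema livers the first 2 and the last 2 places were the same. In Ad-FAT10 CMC livers Clec4g still led, at 7.12 ± 1.499 CPM per kb, but Cdh5 was now second at 5.10 ± 0.716 and Kdr was last at 2.12 ± 0.574. Ad-FAT10 Pema livers gave Clec4g 6.46 ± 1.64, Cdh5 5.97 ± 2.02 and Kdr 2.51 ± 0.601 CPM per kb, and there the ranges of Clec4g and Cdh5 overlapped.

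**Figure D1:**
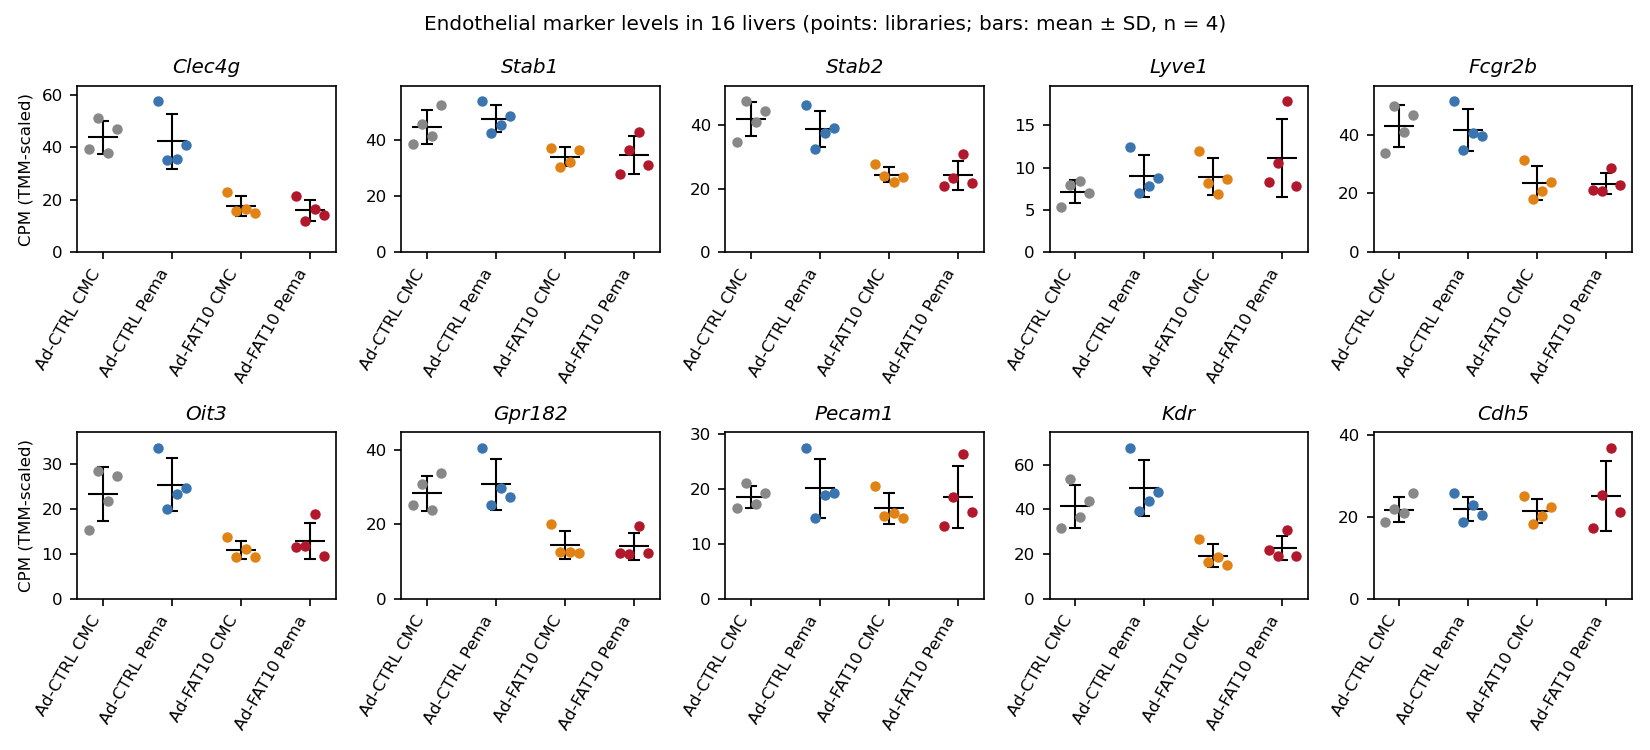
TMM-scaled CPM (y axis, from 0) of each of the 10 endothelial marker genes in the 4 groups; points are single livers and bars are mean ± SD (n = 4). Clec4g, Stab2, Fcgr2b, Oit3, Gpr182 and Kdr were lower in every Ad-FAT10 liver than in every Ad-CTRL liver given the same treatment, while the Lyve1, Pecam1 and Cdh5 ranges overlapped.

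Ad-FAT10 livers given CMC had lower levels of 7 of the 10 members than Ad-CTRL livers given CMC, and of none higher levels. The 6 sinusoidal genes Clec4g, Oit3, Gpr182, Fcgr2b, Stab2 and Stab1 and the VEGF receptor gene Kdr fell, by log2 changes from -1.32 to -0.39. Lyve1, Pecam1 and Cdh5 were not called. Of all genes tested, 20.2% were called lower and 22.5% higher in this comparison (edgeR quasi-likelihood test, Benjamini-Hochberg adjusted p under 0.05). All 7 members that fell had groups that did not overlap, against 17.8% of all genes in that direction. The median log2 change of the 10 members was -0.83, and that of all genes -0.0095. Since the libraries are from whole liver, fewer endothelial cells and less RNA of these genes per cell cannot be told apart.

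The lectin Clec4g fell furthest. Its level was 39.4, 50.9, 37.6 and 47.0 CPM in Ad-CTRL CMC livers, and 23.0, 15.8, 16.4 and 14.9 CPM in Ad-FAT10 CMC livers. The highest Ad-FAT10 liver was well under the lowest Ad-CTRL liver, and the log2 change was -1.32 ± 0.19 (SE, edgeR adjusted p = 3.62e-05). Oit3 ranged from 15.3 to 28.5 CPM in Ad-CTRL CMC and from 9.22 to 13.7 CPM in Ad-FAT10 CMC, a log2 change of -1.11 ± 0.22 (adjusted p = 0.000709). Gpr182 was 25.05, 30.7, 23.7 and 33.6 CPM against 19.995, 12.5, 12.4 and 12.3 CPM. In the Ad-FAT10 group 3 livers were nearly equal and the first stood apart above them. Its log2 change was -0.99 ± 0.20 (adjusted p = 0.000671).

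Both stabilin genes fell. Stab2 was 34.7, 47.6, 41.2 and 44.3 CPM in Ad-CTRL CMC livers and 27.7, 24.1, 22.0 and 23.8 CPM in Ad-FAT10 CMC livers, a log2 change of -0.78 ± 0.13 (edgeR adjusted p = 0.000193). Stab1 was 38.6, 45.5, 41.2 and 52.4 CPM against 37.1, 30.3, 32.1 and 36.5 CPM, a log2 change of -0.39 ± 0.13 (adjusted p = 0.0212). The Stab1 groups were separated by a narrow gap. This call was lost without Ad-CTRL CMC replicate 4 (adjusted p = 0.0782), without Ad-FAT10 CMC replicate 2 (0.0552) or replicate 3 (0.0563), and with libraries scaled to their totals in place of TMM (log2 change -0.092, adjusted p = 0.63).

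A count ratio within each library, which no scaling changes, set the stabilins side by side. The ratio of Stab2 to Stab1 counts was 0.900, 1.05, 0.999 and 0.846 in Ad-CTRL CMC livers and 0.748, 0.797, 0.684 and 0.651 in Ad-FAT10 CMC livers. All 4 Ad-FAT10 ratios were below all 4 Ad-CTRL ratios, a log2 difference of -0.40 (exact two-sided permutation test, p = 0.0286, the smallest p that 4 against 4 allows). Under Pema the ratios were 0.816 ± 0.0396 (SD, n = 4) with Ad-CTRL and 0.703 ± 0.0435 with Ad-FAT10, a log2 difference of -0.22 (exact permutation p = 0.0286). Between Pema and CMC within Ad-CTRL livers the stabilin ratio differed by as much, -0.21 (exact permutation p = 0.0571, adjusted 0.0914), with overlapping groups, and within Ad-FAT10 livers by -0.033 (exact permutation p = 0.686). The stabilin ratio and the Kdr ratio below were chosen after the values were seen. Over their 8 exact tests (2 ratios in 4 comparisons) the adjusted p of each adenovirus difference was 0.0572, which is not under 0.05, so these ratios are a description of the livers and no independent test.

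Of the other 2 receptors of the sinusoidal set, Fcgr2b fell and Lyve1 was not called. Fcgr2b was 33.6, 49.8, 41.0 and 46.8 CPM in Ad-CTRL CMC livers and 31.3, 18.0, 20.9 and 23.8 CPM in Ad-FAT10 CMC livers, a log2 change of -0.87 ± 0.16 (edgeR adjusted p = 0.000472). Lyve1, the scarcest member, was 5.34, 7.90, 8.41 and 7.05 CPM against 12.0, 8.18, 6.90 and 8.62 CPM. The Lyve1 groups overlapped, and its log2 change of 0.31 had a 95% interval from -0.23 to 0.84 (adjusted p = 0.346). Fcgr2b is also transcribed in B cells, whose 7 markers summed to 5.64 to 11.3 CPM in Ad-CTRL CMC and 2.94 to 3.61 CPM in Ad-FAT10 CMC, with 6 of the 7 called lower. None of the 7 was at 0 in all 16 libraries, and the part of B cells, or of any other cell type, in the Fcgr2b result was not tested. Fcgr3, a closely related activating receptor gene of myeloid cells chosen after its values were seen, went from 12.2 ± 0.992 to 19.0 ± 2.19 CPM (SD, n = 4) and rose by 0.64 ± 0.16 (log2, SE, edgeR adjusted p = 0.00429).

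Among the general endothelial genes Kdr fell and the other 2 were not called. Kdr was 31.5, 53.8, 36.5 and 43.9 CPM in Ad-CTRL CMC livers and 26.6, 16.6, 18.5 and 15.0 CPM in Ad-FAT10 CMC livers. Its log2 change was -1.12 ± 0.21 (SE, edgeR adjusted p = 0.000464), second only to Clec4g among the members. Cdh5, in contrast, was 18.6, 21.8, 20.8 and 25.7 CPM against 25.1, 18.2, 20.05 and 22.4 CPM, groups that overlapped almost entirely. The Cdh5 log2 change of -0.023 had a 95% interval from -0.40 to 0.36 (adjusted p = 0.927), and Pecam1, at 16.5 to 21.0 against 14.7 to 20.6 CPM, had a log2 change of -0.18 with an interval from -0.59 to 0.23 (adjusted p = 0.487). Both intervals exclude a change as large as that of Kdr.

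The ratio of Kdr to Cdh5 counts, chosen because the 2 genes had differed in the comparison above, restates that contrast for each liver. It was 1.69, 2.46, 1.75 and 1.71 in Ad-CTRL CMC livers and 1.06, 0.914, 0.921 and 0.670 in Ad-FAT10 CMC livers. The groups did not overlap, and the log2 difference was -1.10 (exact two-sided permutation p = 0.0286, 0.0572 adjusted over the 8 tests). Under Pema it was 2.64, 2.10, 1.92 and 2.36 with Ad-CTRL and 1.25, 0.762, 0.830 and 0.912 with Ad-FAT10. There too every Ad-FAT10 liver was below every Ad-CTRL liver, with a log2 difference of -1.28 (exact permutation p = 0.0286). Leaving out any 1 library kept the difference between -1.19 and -0.97 under CMC and between -1.42 and -1.19 under Pema.

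In mice given pemafibrate, the same 7 members were lower with Ad-FAT10 and none was higher, where 20.5% of all genes were called lower and 21.2% higher. The median log2 change of the members was -0.76, and that of all genes -0.020. In 6 of the 7 the groups did not overlap, against 18% of all genes in that direction, Stab1 being the exception. These livers are other mice than those of the CMC comparison. Both comparisons came from 1 model over all 16 libraries with a shared estimate of the spread, so their p-values are not independent.

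Clec4g again fell most. It was 57.5, 35.1, 35.3 and 40.9 CPM in Ad-CTRL Pema livers and 21.2, 11.8, 16.5 and 14.1 CPM in Ad-FAT10 Pema livers, and the change was -1.41 ± 0.19 (log2, SE, edgeR adjusted p = 2.4e-05). Kdr was 67.7, 39.4, 43.8 and 47.8 CPM against 21.6, 19.2, 30.6 and 19.2 CPM, a log2 change of -1.13 ± 0.21 (adjusted p = 0.000389). In both genes the first Ad-CTRL Pema liver was the highest of its group, and the groups stayed apart. Gpr182 was 40.56, 25.005, 29.8 and 27.3 CPM against 12.4, 11.9, 19.4 and 12.2 CPM, a log2 change of -1.13 ± 0.19 (adjusted p = 0.00022), and Ad-FAT10 Pema replicate 3 stood above its 3 group mates. Zbtb39, which overlaps Gpr182 on the opposite strand in the GENCODE M21 annotation, changed by -0.43 ± 0.13 (log2, SE, edgeR adjusted p = 0.0143) under Pema and by -0.20 ± 0.13 (adjusted p = 0.241) under CMC. Oit3 ranged from 19.8 to 33.6 CPM with Ad-CTRL and from 9.50 to 18.7 CPM with Ad-FAT10, a log2 change of -0.97 ± 0.22 (adjusted p = 0.00178).

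Of the receptors, Fcgr2b was 51.4, 34.8, 40.604 and 39.3 CPM in Ad-CTRL Pema livers and 21.0, 20.7, 28.5 and 22.9 CPM in Ad-FAT10 Pema livers, and the change was -0.83 ± 0.16 (log2, SE, edgeR adjusted p = 0.000655). Stab2 was 46.3, 32.6, 37.4 and 39.2 CPM against 20.8, 23.5, 31.0 and 21.6 CPM, a log2 change of -0.68 ± 0.13 (adjusted p = 0.000635). Stab1 was 53.8, 42.6, 45.2 and 48.4 CPM against 27.9, 36.5, 42.9 and 30.9 CPM, a log2 change of -0.46 ± 0.13 (adjusted p = 0.00792). The highest Ad-FAT10 liver for Stab1, replicate 3, lay just above the lowest Ad-CTRL liver. With libraries scaled to their totals the calls of Stab1 (log2 change -0.093, adjusted p = 0.614) and Stab2 (-0.32, adjusted p = 0.0837) were lost.

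Lyve1, Pecam1 and Cdh5 were not called under Pema either. Lyve1 was 12.5, 6.95, 7.83 and 8.72 CPM with Ad-CTRL and 8.26, 10.6, 17.9 and 7.81 CPM with Ad-FAT10, where replicate 3 was far above the rest. Cdh5 was 25.7, 18.8, 22.8 and 20.3 CPM against 17.3, 25.2, 36.9 and 21.0 CPM, with the same liver the highest. The log2 changes were 0.31 for Lyve1 (95% interval -0.21 to 0.83, edgeR adjusted p = 0.328), 0.20 for Cdh5 (-0.18 to 0.58, adjusted p = 0.393) and -0.12 for Pecam1 (-0.53 to 0.29, adjusted p = 0.65). Scaled to library totals, Lyve1 and Cdh5 were called higher under Pema, with log2 changes of 0.68 (adjusted p = 0.039) and 0.57 (adjusted p = 0.0224). That scaling moved the median of all genes to 0.28 under CMC and 0.34 under Pema. It also lowered the share of called genes that were lower from 47.3% to 14.3% under CMC and from 49.1% to 10.3% under Pema, and left 6 members called under CMC (6 lower) and 7 under Pema (5 lower, 2 higher). Most calls over all genes were thus higher calls on that scaling. The alternatives other than leaving out 1 library, library totals among them, called 5957 to 7426 of all genes under CMC and 4993 to 8030 under Pema.

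**Figure D2:**
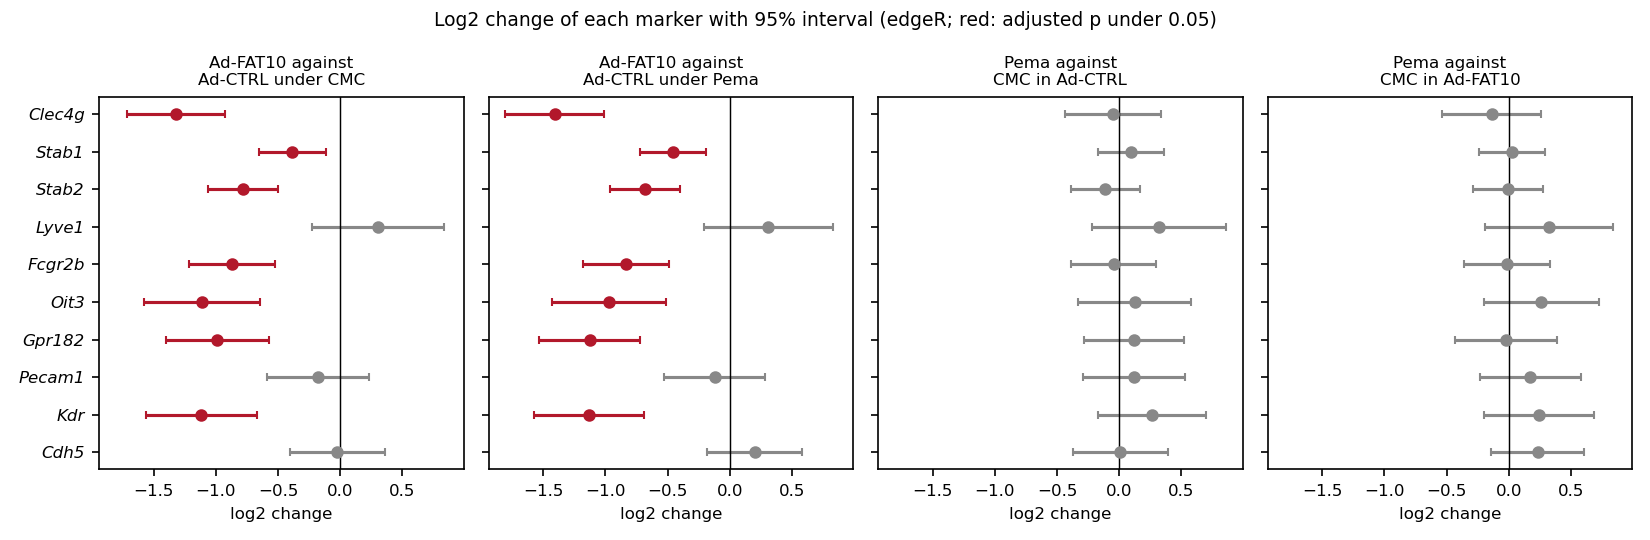
Log2 change (x axis) of each endothelial marker in the 4 pairwise comparisons, with 95% intervals from edgeR on TMM-scaled counts; red marks an adjusted p under 0.05. The same 7 genes are red in both adenovirus comparisons, and none is red in either comparison of Pema with CMC.

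Pemafibrate moved none of the 10 members past the threshold, in Ad-CTRL or in Ad-FAT10 livers. It called 30.6% of all genes in Ad-CTRL livers and 25.4% in Ad-FAT10 livers in either direction. No member reached an unadjusted p under 0.05 in edgeR, which 39.8% and 35.5% of all genes did, and DESeq2 called 0 members as well. The member changes ran from -0.11 to 0.32 in Ad-CTRL livers, with adjusted p from 0.382 to 0.976, and from -0.14 to 0.33 in Ad-FAT10 livers, with adjusted p from 0.373 to 0.978. The largest estimate in both was that of Lyve1, 0.32 (95% interval -0.22 to 0.86) and 0.33 (-0.19 to 0.84). For Clec4g the intervals were -0.44 to 0.33 and -0.53 to 0.26, and for Stab1 they were -0.17 to 0.36 and -0.24 to 0.29. The intervals leave room for modest changes in all 10 genes, and none of them reaches a change as large as that of Clec4g or Kdr with Ad-FAT10. Scaling to library totals or to upper quartiles moved the share of called genes that were lower in Ad-CTRL livers from 47.2% to 60.5% or 58.9%, and still called 0 members.

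The difference between the adenovirus changes under Pema and under CMC was tested as an interaction. None of the 10 members was called, against 0.156% of all genes (23 of 14770), and none had an unadjusted p under 0.05, against 10.8% of all genes. DESeq2 called 0 members. Interaction estimates ran from -0.14 for Gpr182 to 0.22 for Cdh5, with 95% intervals that together spanned -0.74 to 0.79. The width of these intervals limits what can be said of a difference between the treatments. Ubd itself was higher with Pema in both adenoviruses, as given above, and its part in the Pema and interaction estimates was not tested.

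Because all endothelial transcripts of a whole liver can shift together, each member was also set against 34 other general endothelial genes. Those genes hold no member, and their levels served in place of library size. Their summary level is given relative to its Ad-CTRL CMC mean, where its SD was 0.131 (n = 4). It was 0.668 ± 0.119 with Ad-FAT10 under CMC, and under Pema it was 1.02 ± 0.183 with Ad-CTRL and 0.762 ± 0.173 with Ad-FAT10. On this scale the median log2 change of all genes was 0.59 under CMC and 0.42 under Pema, and a value near 0 means that a gene moved as the endothelial reference did.

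Relative to the other endothelial genes, Clec4g, Kdr and Oit3 were lower in Ad-FAT10 CMC livers and Lyve1 and Cdh5 were higher. Here 1.39% of all genes were called lower and 51.7% higher, so a lower call was rare on this scale and a higher call was common. The reference genes were themselves spread to both sides of it: of the 34, 4 were called lower and 4 higher. The log2 changes were -0.74 for Clec4g (edgeR adjusted p = 0.00436), -0.53 for Kdr (0.0206) and -0.50 for Oit3 (0.0256). Lyve1 was at 0.89 (adjusted p = 0.000609) and Cdh5 at 0.57 (adjusted p = 0.0103), the first above and the second just under the median of all genes. Stab1 (0.21, adjusted p = 0.329), Stab2 (-0.18, 0.399), Fcgr2b (-0.29, 0.176), Gpr182 (-0.41, 0.0601) and Pecam1 (0.41, 0.0561) were not called apart from the reference. Without Ad-CTRL CMC replicate 2 or without Ad-FAT10 CMC replicate 4 the calls of Kdr (adjusted p = 0.0729 and 0.102) and Oit3 (0.0693 and 0.0918) were lost, leaving 3 members called each time, and that of Oit3 was also lost without Ad-CTRL CMC replicate 4 (0.0644). Gpr182 was called lower in 3 fits with 1 library left out, without Ad-CTRL Pema replicate 1 (0.045), Ad-FAT10 CMC replicate 1 (0.03) or Ad-FAT10 Pema replicate 3 (0.0392). Pecam1 was called higher in 2 of these, without Ad-CTRL Pema replicate 1 (0.0439) or Ad-FAT10 Pema replicate 3 (0.0432), and with size factors from the summed counts of the reference genes (0.50, adjusted p = 0.0123).

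Under Pema the same scale gave 4 members lower and 2 higher. Clec4g was at -0.91 (edgeR adjusted p = 0.000968), Gpr182 at -0.70 (0.00316), Kdr at -0.69 (0.00468) and Oit3 at -0.56 (0.0202). Of all genes 1.68% were called lower and 35.2% higher, and of the 34 reference genes 3 were called lower and 5 higher. Lyve1 was at 0.71 (adjusted p = 0.0063) and Cdh5 at 0.59 (0.0116), both above the median of all genes. Stab1 lay at -0.041 (adjusted p = 0.877), and Stab2 (-0.26, 0.269), Fcgr2b (-0.39, 0.0883) and Pecam1 (0.30, 0.194) were, like it, not called. The Oit3 call was lost without Ad-FAT10 Pema replicate 2 (0.0693) or replicate 4 (0.0778), and Pecam1 was called higher with size factors from summed counts (0.43, adjusted p = 0.034). On this scale no member was called for pemafibrate in either adenovirus, where 6.41% of genes were called lower and 6.45% higher in Ad-CTRL and 8.49% and 3.32% in Ad-FAT10, none for the interaction (0.0677% lower, 0% higher), and none had an unadjusted p under 0.05 in these tests, against 23.4%, 24.5% and 4.29% of all genes.

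**Figure D3:**
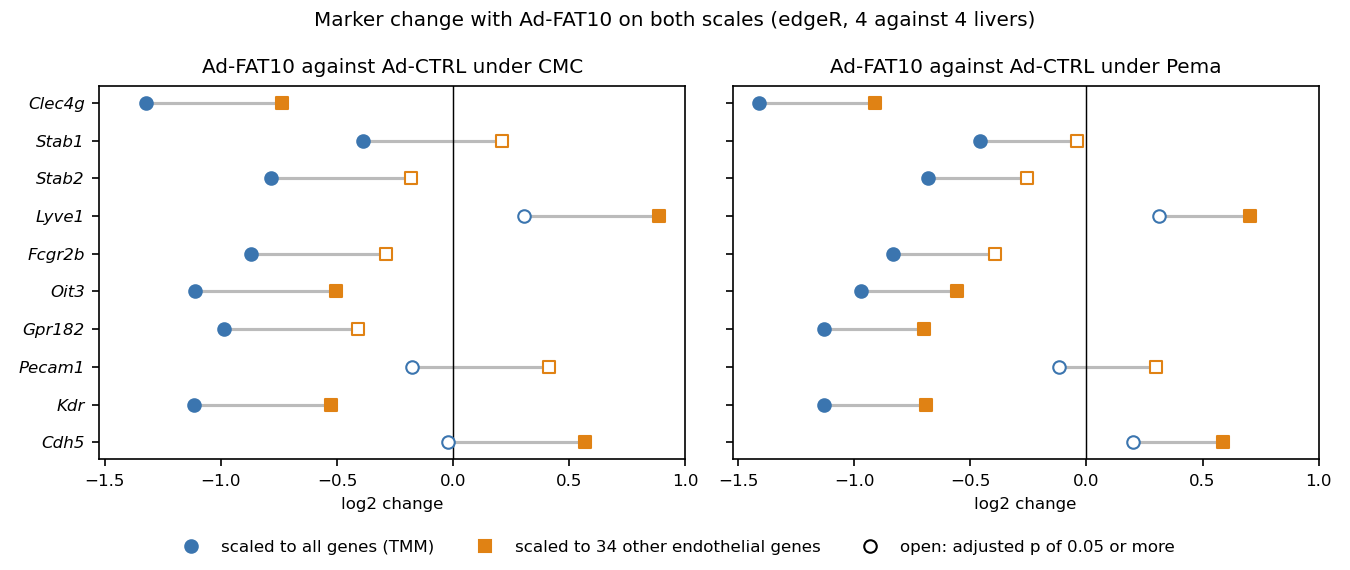
Log2 change with Ad-FAT10 (x axis) of each endothelial marker under CMC (left) and Pema (right), on the scale of all genes (TMM, blue circles) and relative to 34 other endothelial genes (orange squares); filled symbols have an edgeR adjusted p under 0.05. Clec4g, Kdr and Oit3 are filled and below 0 on both scales in both panels, while Lyve1 and Cdh5 are filled only on the endothelial scale and lie above 0.

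Most members rose and fell together from liver to liver within a group, Clec4g less than the others. Over the 45 pairs of members, Pearson's r of log2 CPM after subtracting group means ran from 0.18 to 0.94 with a median of 0.83, over 16 libraries, and all 45 were positive. For Clec4g it was 0.18 with Cdh5, 0.23 with Stab1, 0.42 with Lyve1 and 0.43 with Pecam1, and at most 0.79, with Kdr. The points share library scaling, so this is a description. Neither these correlations nor the library ranks that follow were computed over all genes, so they are not shown to be particular to the members. Ad-CTRL Pema replicate 1 had the highest level of its group in 10 of 10 members and replicate 2 the lowest in 10 of 10. Ad-FAT10 CMC replicate 1 was highest in 10 of 10, Ad-FAT10 Pema replicate 3 highest in 9 of 10, and Ad-CTRL CMC replicate 1 lowest in 8 of 10. The labels give no batch to set beside this. Ad-FAT10 Pema replicates 1 and 3 had the lowest and highest level of the 34 other endothelial genes in their group (0.624 and 1.00 of the Ad-CTRL CMC mean). They were not the extremes in every member. Without both of these livers, 7 members were still called lower under CMC and 7 under Pema. Of all genes, that fit called 3263 lower and 3478 higher under CMC, and 2443 lower and 2550 higher under Pema. Under Pema it put Clec4g at -1.70 (edgeR adjusted p = 3.21e-05) and Lyve1 at 0.028 (adjusted p = 0.94).

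**Figure D4:**
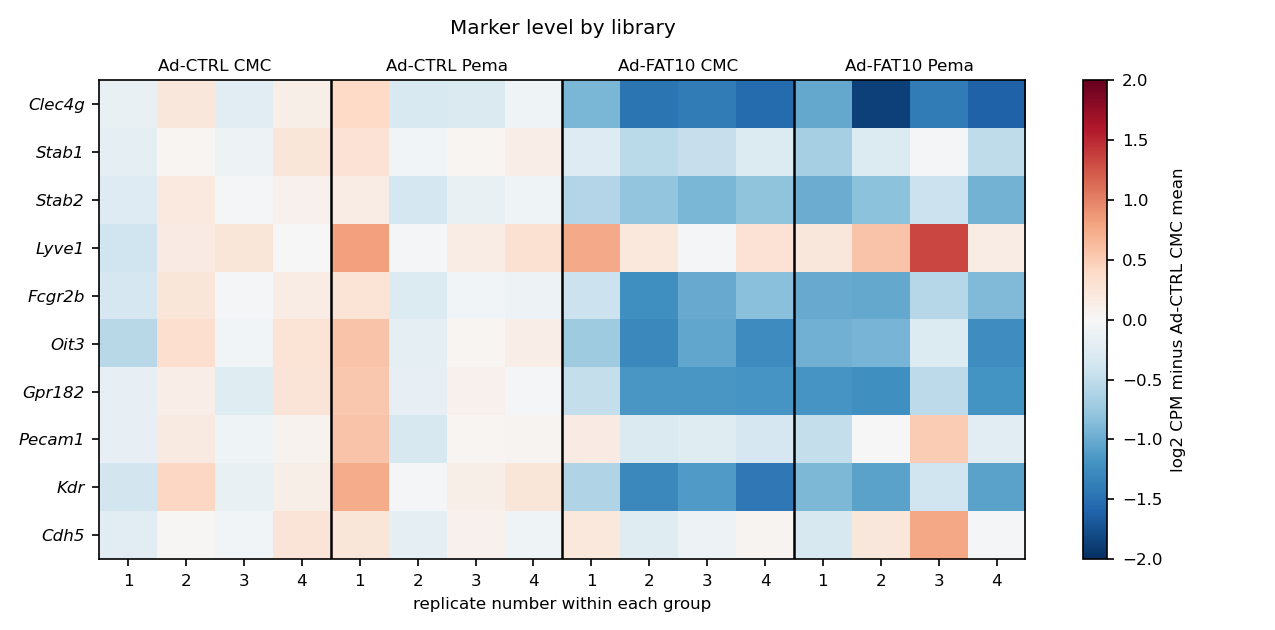
Log2 CPM of each endothelial marker (rows) in each of 16 livers (columns, replicate number within group), minus the mean of the Ad-CTRL CMC livers; blue is lower and red higher. Clec4g, Oit3, Gpr182, Kdr, Fcgr2b and Stab2 are blue in the Ad-FAT10 livers, and single columns such as Ad-CTRL Pema 1 and Ad-FAT10 Pema 3 are shifted towards red in nearly all rows.

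The genes with levels most like those of the members were sought by Pearson r over the 16 libraries. The 5 with the highest Pearson r to the mean of the members were Eng (0.965), a co-receptor for bone morphogenetic proteins, Tek (0.964), the angiopoietin receptor, Flt4 (0.964), the VEGF-C receptor, Mrc1 (0.963), the mannose receptor of sinusoidal endothelium and macrophages, and Ptprb (0.955), an endothelial phosphatase. Clec4g was most like Tmem204 (0.979), Cd300lg (0.978) and Ehd3 (0.969), and Kdr most like Ptprb (0.982), Lhfpl2 (0.975) and Exoc3l2 (0.970). Stab2 and Oit3 were both nearest to Eng (0.982 and 0.974), Stab1 to Lrrc32 (0.962), Fcgr2b to Ehd3 (0.972) and Gpr182 to Ptprb (0.975). The 3 members that were not called had weaker nearest neighbours: Lyve1 with Jcad (0.878), Pecam1 with Sparc (0.892) and Cdh5 with Hic1 (0.854). These r values cover all 4 groups and so include the group differences themselves.

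Most called genes of the other sinusoidal and general endothelial lists were lower with Ad-FAT10 on the TMM scale. Over all genes, that scale had 20.2% lower and 22.5% higher under CMC, and 20.5% and 21.2% under Pema. Of 25 other sinusoidal endothelial genes tested, 16 were lower and 2 higher in Ad-FAT10 CMC livers, with a median log2 change of -0.61. Relative to the 34 other endothelial genes, 3 of the 25 were lower and 5 higher under CMC, with a median of -0.0098. On that scale 1.39% of all genes were lower and 51.7% higher. Under Pema 5 of the 25 were lower and 3 higher on it, with a median of -0.24. Ehd3, an endocytic recycling factor, went from 52.5 ± 13.3 to 21.9 ± 6.07 CPM (SD, n = 4) and fell by 1.27 on the log2 scale (edgeR adjusted p = 0.000117). Mbnl3, a splicing regulator, rose by 1.78 (adjusted p = 0.000313) from 0.307 ± 0.0762 to 1.04 ± 0.353 CPM. Of the 34 other general endothelial genes, 21 were lower and none higher under CMC, and 14 were lower and 2 higher under Pema, with medians of -0.61 and -0.37. Ushbp1, Exoc3l2 and Eng led under CMC, with log2 changes of -1.19, -1.10 and -0.75 (adjusted p = 1.42e-05, 5.91e-05 and 0.00018). Scaled to library totals, these counts became 6 lower and 4 higher sinusoidal genes and 8 lower and 2 higher general genes under CMC, and 6 and 4, and 6 and 6, under Pema.

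Genes of capillary and continuous endothelium did not move one way. Of 20 tested, 8 were lower and 4 higher under CMC, and 6 were lower and 4 higher under Pema. Scaled to library totals these were 5 and 4, and 3 and 5. Over all genes on the TMM scale, 20.2% were lower and 22.5% higher under CMC, and 20.5% and 21.2% under Pema. Higher calls in this list were thus about as frequent as over all genes. Col4a1, a basement membrane collagen, went from 34.1 ± 4.32 to 74.3 ± 9.95 CPM (SD, n = 4) under CMC and rose by 1.13 (log2, edgeR adjusted p = 0.000222). Ly6a, a surface antigen of many endothelial beds and of some blood cells, rose by 1.07 (adjusted p = 0.000377), and Sparcl1, a matricellular protein gene, fell by 1.33 (adjusted p = 5.37e-05). Genes of endothelial activation rose in 8 of 12 under CMC and 7 of 12 under Pema, and none fell. Icam1, which encodes an adhesion molecule for leukocytes, went from 29.3 ± 5.94 to 90.0 ± 21.0 CPM under CMC and rose by 1.62 (adjusted p = 2.17e-06). Hepatocytes and leukocytes also transcribe several of these activation genes.

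Ligands and receptors known to act between endothelium and hepatocytes were read from the same whole-liver counts, which do not show the cell of origin. Vegfa, the ligand of the Kdr product and made largely outside the endothelium, went from 144.8 ± 11.1 to 84.7 ± 5.48 CPM (SD, n = 4) under CMC and fell by 0.77 on the log2 scale (edgeR adjusted p = 1.44e-06), and it fell by 0.86 under Pema (adjusted p = 7.38e-07). Of the 20 tested genes of the VEGF and angiopoietin pathway, 9 were lower and 3 higher under CMC, and 9 were lower and 5 higher under Pema. Scaled to library totals these became 4 lower and 5 higher, and 4 lower and 7 higher. Over all genes the TMM shares were 20.2% lower and 22.5% higher under CMC, and 20.5% and 21.2% under Pema. Gdf2, the ligand BMP9, fell by 0.79 under CMC (adjusted p = 0.000319), and Angpt2, an angiopoietin released by activated endothelium, rose by 1.76 (adjusted p = 0.00067) from a low level of 1.02 ± 0.263 CPM. Of 14 tested paracrine factors of endothelium, 9 were lower and 2 higher under CMC and 8 lower and 2 higher under Pema. Scaled to library totals these were 3 lower and 2 higher, and 5 lower and 3 higher. The lists share genes, so their counts are not separate results. Wnt2, Wnt9b, Rspo3, Bmp2 and Bmp6 are also among the other sinusoidal genes. Flt1, Tek, Tie1, Eng, Ramp2 and Calcrl of the pathway list are also among the other general endothelial genes. Angpt2 is in the activation, pathway and paracrine lists. Bmp2 fell by 0.84 and 1.00 (adjusted p = 0.000464 and 0.000102), and Rspo3, which amplifies Wnt signals to hepatocytes around the central vein, fell by 0.80 and 0.99 (adjusted p = 0.00113 and 0.000183).

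Pemafibrate left most of these genes uncalled, as it did the members, but not all of them. Of the 34 other general endothelial genes, 1 was lower and 1 higher in Ad-CTRL livers and 1 lower and 3 higher in Ad-FAT10 livers. Over all genes, 30.6% and 25.4% were called in either direction. S1pr1, the receptor for sphingosine 1-phosphate, fell by 1.12 and 0.72 on the log2 scale in Ad-CTRL and Ad-FAT10 livers (edgeR adjusted p = 4.21e-06 and 0.000515). The notch ligand gene Jag1 rose by 1.67 and 1.13 (adjusted p = 9.86e-07 and 0.000134). Nrp2, a VEGF-C co-receptor, rose by 1.81 and 1.14 (adjusted p = 1.3e-07 and 4.15e-05), and Col4a1 rose by 0.95 and 0.92 (adjusted p = 0.00108 and 0.00164). None of these 4 genes is restricted to endothelium, and the cells behind the changes were not tested.

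**Figure D5:**
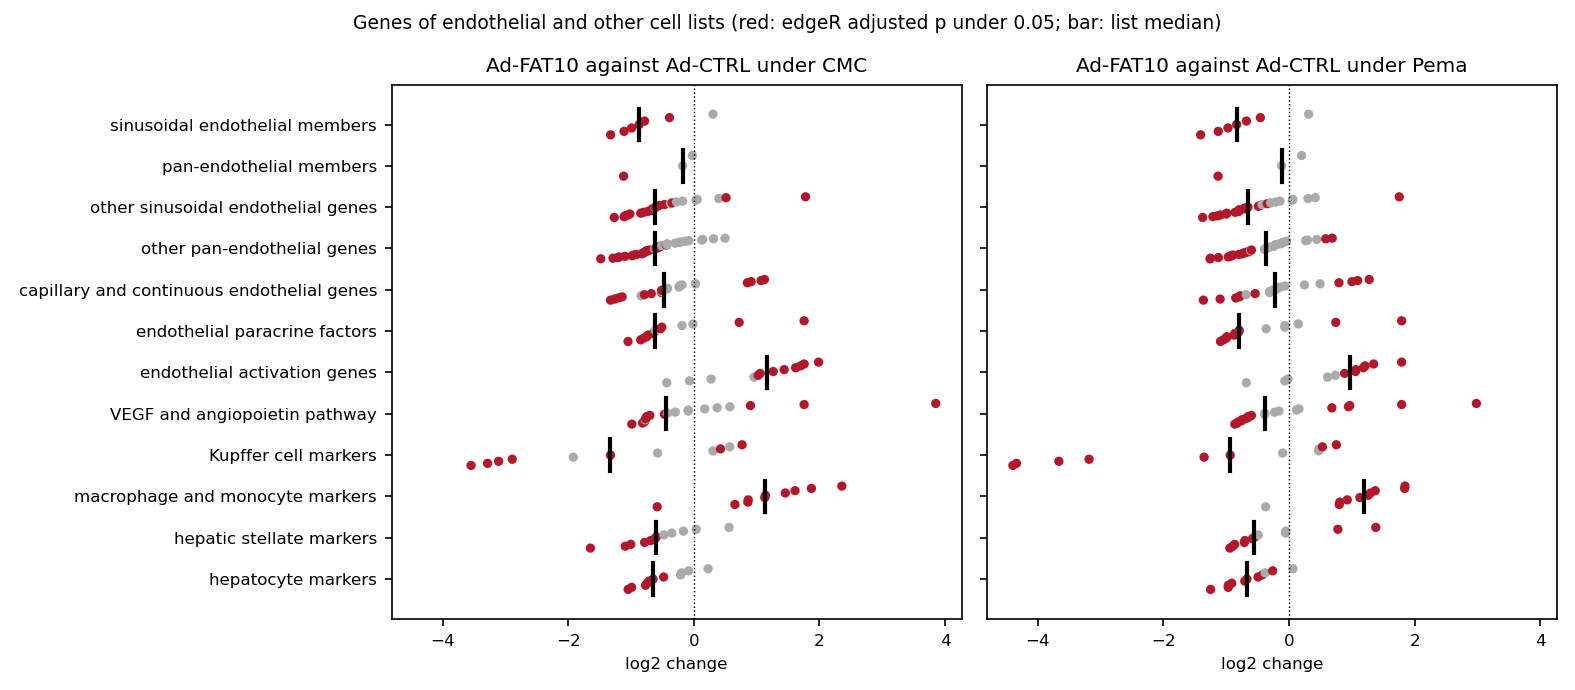
Log2 change with Ad-FAT10 (x axis) of the tested genes of 12 lists, under CMC (left) and Pema (right), from TMM-scaled counts; each point is a gene, red where the edgeR adjusted p is under 0.05, and the black bar is the list median. The medians of the sinusoidal genes, other general endothelial genes, stellate and hepatocyte markers lie below 0, and those of the activation genes and of the macrophage and monocyte markers above 0.

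Markers of other liver cells moved with the adenovirus as well. Over all genes, 20.2% were lower and 22.5% higher under CMC, and 20.5% and 21.2% under Pema. Of the 11 hepatocyte markers tested, 7 were lower and none higher under CMC and 9 lower under Pema, and their sum was 96775 to 125480 CPM in Ad-CTRL CMC and 66194 to 83176 CPM in Ad-FAT10 CMC. Of the 12 stellate cell markers 7 were lower and none higher under CMC and 7 lower and 2 higher under Pema. Scaled to library totals, the hepatocyte counts were 5 lower and 1 higher in both comparisons, and the stellate counts 4 lower and 1 higher under CMC and 4 and 2 under Pema. Relative to the 34 other endothelial genes, the median log2 change under CMC was -0.034 for hepatocyte and -0.0078 for stellate markers. Under Pema these medians were -0.25 and -0.11. Under CMC the sum of the stellate markers went from 462.9 to 519.3 CPM down to 270.6 to 354.7 CPM. Lower levels were thus measured in other cell types' genes as well, and the part of these cells in the member results was not tested. Resident Kupffer cell genes that share scavenging duties with sinusoidal endothelium changed more than any member: Cd163 changed by -3.28 under CMC (edgeR adjusted p = 4.8e-07) and Timd4 by -3.55 (adjusted p = 1.74e-06). In the whole list of 11 Kupffer markers 5 were lower and 2 higher under CMC and 6 lower and 2 higher under Pema. The list medians were -1.33 and -0.94. Scaled to library totals, 4 were lower and 4 higher under CMC and 4 lower and 3 higher under Pema. Their sums were 732.8 to 857.6 CPM in Ad-CTRL CMC, 603.0 to 764.1 in Ad-CTRL Pema, 747.0 to 1012.0 in Ad-FAT10 CMC and 681.4 to 816.4 in Ad-FAT10 Pema. C6 and Cd5l made up much of these sums, with means of 274.6 and 154.3 CPM in Ad-CTRL CMC.

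Markers of myeloid, T and NK cells were mostly higher with Ad-FAT10, while those of B cells, given above, were lower. Over all genes, 22.5% were higher and 20.2% lower under CMC, and 21.2% and 20.5% under Pema. Of 10 macrophage and monocyte markers 9 were higher and 1 lower under CMC and 9 higher under Pema, and their sum was 233.0 to 328.5 CPM in Ad-CTRL CMC and 438.6 to 552.4 CPM in Ad-FAT10 CMC. T and NK cell markers were higher in 7 of 9 in both comparisons, and neutrophil markers in 7 of 7 under CMC and 5 of 7 under Pema. Stab1, Lyve1 and Pecam1 are also transcribed in some macrophages or leukocytes, and Pecam1 in platelets. The sum of 4 tested platelet markers was 7.07 to 7.98 CPM in Ad-CTRL CMC and 6.52 to 8.67 CPM in Ad-FAT10 CMC, with 1 of 4 called lower. The part of these cells in the values of Stab1, Lyve1 and Pecam1 was not tested. Among lymphatic endothelial markers, where Lyve1 is also prominent, Ccl21a and Mmrn1 had too few counts to test, and 1 of the 3 tested genes, Reln, which is also a stellate cell gene, was lower under CMC.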

How the data were processed

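RNA of 16 mouse livers was sequenced as poly(A)-selected libraries with dUTP strand marking on a DNBSEQ instrument, per the labels' protocols. The values used are the raw counts per gene that the authors deposited, 1 table for each liver. Per the submitters' processing notes, the build was GRCm39 and the tools included DESeq2 (versions 1.36.0 and 2.11.40.6) and STAR 2.7.6. Which program counted the reads, on which annotation release and with what strand setting, is not given in the sources used here. Reads of Clec4g, Stab1, Stab2, Fcgr2b and Gpr182 could therefore mix with those of an overlapping gene on the opposite strand, and reads of Fcgr2b with those of its paralogs.

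From there, Ensembl IDs were named through GENCODE M21, which matched 52083 of 55416 (94.0%). Genes with too few counts were removed with filterByExpr, which left 14770, and counts were scaled by TMM. A quasi-likelihood model (edgeR 4.0.16 in R 4.3.3) with 1 mean for each of the 4 groups was fitted over all 16 libraries, with p-values adjusted over all 14770 genes by Benjamini-Hochberg and called at 0.05. SEs are the log2 change over the square root of F. A second fit replaced library sizes by median-of-ratios size factors over 34 other general endothelial genes. Count ratios were compared by exact permutation tests over livers. Levels per kb used the union of exon lengths in GENCODE M21. The script was tested on simulated counts with changes set between Ad-FAT10 and Ad-CTRL under CMC. It recovered 94% of 100 genes changed by 1 on the log2 scale and 42% of 100 changed by 0.5. Changes of the smaller size can thus be missed.

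The labels describe separate mice and give no batch. Replicates of a group differed by more than sampling noise (chi-square per gene 14.5 to 119 in 24 pairs). At 18663498 to 28898229 counts a library, 3 counts correspond to 0.104 to 0.161 CPM, a limit that covers counting error only. Members and gene lists were chosen with earlier results of these data known. Genes named beside the members were, by rule, up to 3 genes of smallest p in a list and comparison, and, among genes whose average log2 CPM reached 1, those most like a member in Pearson r over 16 libraries (5 for the mean of the members, 3 for each member). Alternatives were DESeq2 1.42.0, library totals, upper quartiles, no filter, 2 groups at a time, a replicate block, summed counts of the 34 reference genes as size factors, and leaving out each library. Leaving out 2 Ad-FAT10 Pema livers and the count ratios were added after seeing the data.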

Additional observations from a re-analysis of the deposited data

Results flagged for a closer look

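A liver stood apart from its 3 group mates in 3 of 40 combinations of member and group, where chance alone gives about 1 in 20. Gpr182 was flagged in Ad-FAT10 CMC, where replicate 1 was at 19.995 CPM and the others at 12.3 to 12.5, a gap of 0.973 of the whole range, above the limit of Dixon's test. Gpr182 was flagged again in Ad-FAT10 Pema, where replicate 3 was at 19.4 CPM and the others at 11.9 to 12.4, a gap of 0.945 of the range. Pecam1 was flagged in Ad-FAT10 CMC, where replicate 1 was at 20.6 CPM and the others at 14.7 to 15.5, a gap of 0.853. The high liver was in each case the one highest in at least 9 of the 10 members of its group. These livers also had the lowest Ubd of their groups, 110.5 CPM in Ad-FAT10 CMC and 391.3 CPM in Ad-FAT10 Pema. The remaining livers did not keep 1 order. Ad-FAT10 CMC replicate 2, next lowest in Ubd at 166.6 CPM, was lowest in 4 of 10 members. Replicate 3 of that group, highest in Ubd at 339.3 CPM, was lowest in 2. In Ad-FAT10 Pema, replicate 1 had the highest Ubd, 545.8 CPM, and was lowest in 4. In Ad-CTRL Pema, replicate 1, highest in 10 of 10 members, had Ubd at 21.6 CPM, and replicate 4 was lower at 14.2 CPM. A link with Ubd was not tested.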

How the results depend on the processing

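Across all alternatives, 2065 of 2090 member results kept their side of the threshold, 16 lost a call and 9 gained one. All of these lost and gained calls were in the adenovirus comparisons. The total also holds the pemafibrate and interaction results, none of which was called in any setting. On the TMM scale, 16 of the 23 alternatives for each pairwise comparison leave out 1 library and so share most of the data. No result that was called in either fit changed sign. Of the 2065, 1937 kept their sign and 128 changed it while not called, 116 of them for pemafibrate or the interaction and 12 for the adenovirus. With library totals the uncalled changes with Ad-FAT10 under CMC became 0.27 for Cdh5 and 0.11 for Pecam1, and that of Pecam1 under Pema became 0.24. With Ad-FAT10, 6 to 7 members were called under CMC and 7 under Pema in every setting, although library totals exchanged some of them. Over all genes these settings called 5335 to 7426 under CMC and 4993 to 8030 under Pema. Pemafibrate and the interaction called 0 members in every setting. Relative to other endothelial genes, the count under CMC was 5, and 3 to 7 with 1 library left out. Over all genes the interaction count was 23, rose to 120 with DESeq2 and to 93 without the low-count filter, and ran from 11 to 36 with 1 library left out, and library totals moved its share of lower calls from 82.6% to 72.2%. The cause was not tested.

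Replicate numbers did not pair the livers: same-numbered libraries correlated at -0.17 to 0.17, over 0.1 in 3 of 24 pairs, and 5 of 16 libraries were most like their own number. With the replicate block, 7 members were called under CMC and 7 under Pema, 0 for pemafibrate in either adenovirus and 0 for the interaction. The block gave 6074, 5998, 4369, 3603 and 16 calls over all genes for the adenovirus under CMC and Pema, pemafibrate in Ad-CTRL and Ad-FAT10, and the interaction. Relative to other endothelial genes it called 3 members under CMC (1 lower, 2 higher), losing Kdr (adjusted p = 0.05) and Oit3 (0.0617), and 5 under Pema, losing Oit3 (0.0508).

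With 4 livers a group, member intervals were about as wide for the scarcest gene, Lyve1, as the changes of the strongest members.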
